A study of Mus musculus with 4 samples.

Results

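Smad1 binding in mouse mesodermal cells is described at 641 distal sites whose sequence holds no long run of adenines, out of 10466 sites that MACS and QESEQ, the programs used to call peaks, had in common after treatment with DMSO. A site was taken when it overlapped no tRNA gene, held no run of 7 or more A, or T on the other strand, anywhere in its interval, and had its centre more than 1 kb from every annotated transcript start. Of the 10466 common sites, 10252 lay outside tRNA genes, 914 of these held no such run, and 641 of the 914 were distal, which is 6.12% of all common sites. Position and sequence alone chose them, and neither the score of a peak nor any call made with IWR-1 was used. They are named here the distal run-free sites.

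Embryoid bodies (EBs), in which embryonic stem (ES) cells form mesoderm in culture, came from the line GFP-Bry (strain C57BL/6), whose GFP reports the mesodermal gene Brachyury. They were dissociated, reaggregated and cultured for 24 h in vehicle (DMSO) or in 10 µM IWR-1, a Wnt inhibitor, up to day 4. A Smad1 ChIP and its input were sequenced once per treatment, without replicates, so calls are compared by counts and no test between treatments is made. Peak lists give positions and, from MACS, a score, without the reads under each peak, so depth per peak cannot be stated.

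Smad1 is phosphorylated by BMP receptors, enters the nucleus with Smad4 and binds DNA at GC-rich elements, while Smad4 prefers the shorter CAGA type of element. Wnt signalling reaches DNA through β-catenin and the TCF/LEF factors, and IWR-1 stabilises Axin and thereby promotes the breakdown of β-catenin. In early mesoderm both pathways act on the choice between blood and heart, and GATA factors are among the proteins that bind with Smad1 in blood-forming cells.

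Stretches of 13 distal run-free sites are printed to show what lies under such peaks, from the plus strand of mm10 (GRCm38), in lower case. Capitals mark the Smad elements searched on either strand. These are the palindrome GGCGCC, the related GGAGCC (reverse complement: GGCTCC) and CAGACA, of the CAGA type, which reads TGTCTG on the other strand. The sites with ranks 2 and 3 by DMSO score come first, named like all others after the nearest coding gene. The former is GC-rich, and the latter is of mixed composition.
Ptma site, chr1:86487450-86487549: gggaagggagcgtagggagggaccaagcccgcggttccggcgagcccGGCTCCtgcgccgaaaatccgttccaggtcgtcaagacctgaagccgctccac
Atf7ip site, chr6:136468546-136468645: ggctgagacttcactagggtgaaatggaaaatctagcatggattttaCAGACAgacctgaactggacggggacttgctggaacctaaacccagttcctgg

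Genes from lists of pathways and lineages gave the next stretches, for each of the 7 sites whose central 200 bp held a Smad element and whose stretch lay outside exon ends. Id2, Id3, Id4 and Msx2 are known targets of BMP, and Id3 is also among the sites that held both a GC-rich element and CAGACA.
Id2 site, chr12:25098825-25098932: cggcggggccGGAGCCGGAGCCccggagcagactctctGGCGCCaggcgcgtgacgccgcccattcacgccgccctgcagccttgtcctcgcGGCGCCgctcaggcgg
Id3 site, chr4:136140498-136140597: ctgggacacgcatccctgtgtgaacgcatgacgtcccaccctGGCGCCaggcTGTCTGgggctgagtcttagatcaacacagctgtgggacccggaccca
Id4 site, chr13:48227834-48227933: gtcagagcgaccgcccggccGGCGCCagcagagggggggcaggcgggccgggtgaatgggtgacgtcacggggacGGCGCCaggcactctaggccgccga
Msx2 site, chr13:53476060-53476248: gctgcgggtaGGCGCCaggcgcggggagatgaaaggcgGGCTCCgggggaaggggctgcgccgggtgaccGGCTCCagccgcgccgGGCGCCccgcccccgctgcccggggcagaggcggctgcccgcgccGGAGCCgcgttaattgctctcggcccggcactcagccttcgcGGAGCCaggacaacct
Evx1 site, chr6:52322405-52322504: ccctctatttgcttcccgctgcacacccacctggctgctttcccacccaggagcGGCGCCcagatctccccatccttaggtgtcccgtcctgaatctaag
Irx4 site, chr13:73289501-73289600: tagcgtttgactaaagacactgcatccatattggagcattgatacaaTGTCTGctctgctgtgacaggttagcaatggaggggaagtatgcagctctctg
Zfp42 site, chr8:43283247-43283346: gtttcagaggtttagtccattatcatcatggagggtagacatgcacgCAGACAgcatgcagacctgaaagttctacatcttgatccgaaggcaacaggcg

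The other stretches come from the sites of highest score whose central 200 bp held a GC-rich Smad element together with CAGACA. They show both kinds of element within a short distance at genes outside the lists.
Sema6b site, chr17:56141691-56141790: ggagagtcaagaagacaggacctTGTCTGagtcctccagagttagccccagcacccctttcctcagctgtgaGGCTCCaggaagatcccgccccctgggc
Bnc1 site, chr7:82033409-82033508: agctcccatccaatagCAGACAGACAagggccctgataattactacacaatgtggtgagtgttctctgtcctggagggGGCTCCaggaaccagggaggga
Fyn site, chr10:39555395-39555503: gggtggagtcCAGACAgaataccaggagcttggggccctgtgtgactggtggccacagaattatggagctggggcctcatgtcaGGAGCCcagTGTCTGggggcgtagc
Gm21748 site, chrY:90818374-90818473: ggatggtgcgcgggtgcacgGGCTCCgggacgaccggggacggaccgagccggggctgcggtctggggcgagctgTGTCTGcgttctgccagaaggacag

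Long runs of A were the rule among distal sites, and the run-free ones were the exception. Of 9055 distal sites outside tRNA genes, 8414 held a run of 7 or more (92.9%), whereas 29.0% of windows of the same width 2 kb away did. By longest run, these sites numbered 236 and 240 at 4 and 5 bases, 64 at 8 bases and 605 at 24 bases, and 753 held a run of 40 or more. Just below the threshold, 112 distal sites had a longest run of 6, with a median DMSO score of 63.6, and 31.3% of them were called by QESEQ with IWR-1. Just above it, 93 had a longest run of 7, with a median of 65.8 and 26.9% called. At the other threshold, 11 run-free sites lay 1000 to 1200 bp from a start with a median score of 62.7, and 10 lay 800 to 1000 bp from a start with a median of 107.

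**Figure D1:**
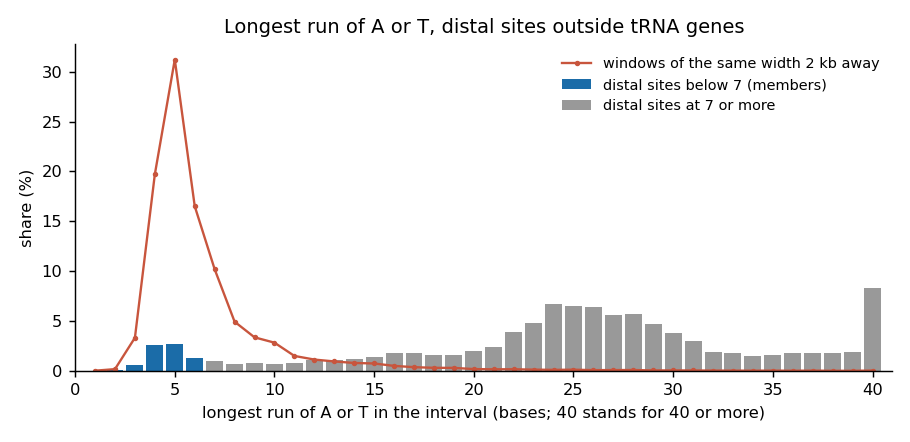
Share of distal sites outside tRNA genes (bars, n = 9055) by the longest run of A or T in the interval, beside windows of the same width 2 kb to either side (line, n = 18110). The 641 sites below 7 are drawn in blue, and the bar at 40 holds all runs of 40 or more.

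The distal run-free sites were narrower, richer in G and C and less often repeat sequence than the common sites as a whole. Their median width was 308 bp, against 423 bp over all common sites. The median content of G and C was 45.9% against 41.5%. The rule itself acts on all 3 measures, since a short interval has less room for a run, and leaving out runs raises G and C content and takes away repeat sequence rich in A. Bases masked as repeats in the reference had a median share of 17.9% against 38.2%, and 116 of the 641 sites were masked over more than 50% of their length (18.1%, 95% exact binomial interval 15.2 to 21.3), against 34.2% of all common sites. A CpG content above 2% of bases was found in 82 sites (12.8%, 10.3 to 15.6), against 11.8% of all common sites, 5.72% (5.23 to 6.23) of distal sites with A runs and 83.2% of the 273 run-free sites near transcript starts. These intervals, like all others given, cover counting error over sites only.

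By position the distal run-free sites were divided between introns and intergenic sequence, and they lay somewhat nearer to coding genes than distal sites with A runs. Of the 641, 308 had their centre in an intron (48.0%, 44.1 to 52.0), 302 between genes (47.1%, 43.2 to 51.1) and 31 in an exon (4.84%, 3.31 to 6.79). Among distal sites with A runs the shares were 47.2%, 50.2% and 2.60%, and over all common sites, which include those near starts, 5.25% lay in exons. The median distance was 10745 bp to the nearest transcript start and 26207 bp to the nearest start of a coding transcript, against 12165 and 30910 bp for distal sites with A runs. Within 5 kb of a coding start lay 103 sites (16.1%, 13.3 to 19.1), against 13.6% of distal sites with A runs, and 134 lay more than 100 kb away (20.9%, 17.8 to 24.3), against 27.6% (26.6 to 28.6). Upstream of the nearest coding start lay 327 of the 641 (47.1 to 54.9%), so the sites were divided about evenly between both sides.

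The sites were scattered over many genes. The nearest coding genes numbered 606, of which 572 had 1 site, 33 had 2 and only Arid1b, which encodes a subunit of the BAF chromatin remodelling complex, had 3. In 23 pairs of neighbouring sites the centres were at most 50 kb apart, and in 2 pairs at most 5 kb. The closest pairs lay 609 bp apart near B430305J03Rik and 4787 bp apart near Rere, and were singled out after their values were seen. Near B430305J03Rik the scores were 60.9 and 145. Both sites there were called by QESEQ with IWR-1, and only the one of higher score had a peak in the MACS list taken for IWR-1. At Rere, which encodes a nuclear receptor corepressor, the scores were 201 and 289. Both Rere sites were called in both IWR-1 lists, as were 18.4% of all common sites.

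The median score of the distal run-free sites was near that of all common sites, while high scores were more frequent than at distal sites with A runs. The DMSO MACS score of a site is the highest score among the DMSO MACS peaks that overlap it; it ranks peaks within that list, whose lowest score is 50. The median was 64.3 in the distal run-free sites, at percentile 47.7 of the DMSO MACS list, and 66.6 in all common sites, at percentile 52.8. A score of at least 100 was reached by 76 sites (11.9%, 9.46 to 14.6), against 10.6% of all common sites and 7.08% (6.54 to 7.65) of distal sites with A runs. The upper tail was long, with an upper quartile of 79.0 and a highest score of 1553.

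The 10 sites with the highest score all had a peak in both IWR-1 lists, against 18.4% of all common sites, most of which scored far lower. In the highest decile of score, 66.0% of the other common sites were called by QESEQ and 69.9% had a peak in the second MACS list. The strongest of all 641, at chr17:4625951-4626673 with a score of 1553, lay between genes, 369 kb upstream of the nearest coding start, that of Arid1b. Another site from this region, at chr17:4907931-4908639 and 86.7 kb upstream of Arid1b, had a score of 525, a content of G and C of 69.7% and the element GGAGCC. The remaining site, at chr17:4633341-4633590, had a score of 68.6 and the TCF/LEF element. All 3 were called in both IWR-1 lists, as were 18.4% of all common sites, and those with scores of 1553 and 525 are among the 10. The nearest annotated starts of any kind there belong to noncoding transcripts.

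The other high scores fell at genes of diverse function. The site near Ptma, which encodes prothymosin alpha, spanned chr1:86487166-86487879, scored 985, and lay between genes 39.2 kb upstream of the coding start. Its content of G and C was 65.4%, CpG made up 11.2% of its bases, and GGAGCC lay in its central 200 bp. The site near Atf7ip, which encodes a partner of a histone methyltransferase, spanned chr6:136468394-136468906, scored 916 and held CAGACA. Krt8, a keratin gene of simple epithelia, had an intronic site at chr15:102002789-102003464, 1.36 kb from a coding start, with a score of 689 and GGAGCC. The site near Gm815, at chr19:26845041-26845920, scored 593, lay between genes and held a TCF/LEF element.

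At Srcin1, which encodes an inhibitor of the kinase Src, an intronic site at chr11:97568556-97569234 scored 585. Upstream of Sec24d, which encodes a coat protein of secretory vesicles, the site at chr3:123264428-123265028 scored 570 and held GGAGCC and a GATA element. An intron of Maml2, which encodes a Notch coactivator, held the site at chr9:13534212-13534914, with a score of 525 and none of the Smad, GATA and TCF/LEF elements over its whole length. The last of the 10 lay at chr11:69417268-69417798, 3.86 kb upstream of the histone demethylase gene Kdm6b, and scored 477. Base composition thus varied widely among the strongest sites, with G and C from 42.4% at Maml2 to 69.7% upstream of Arid1b.

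With IWR-1, QESEQ called a peak at 193 of the 641 distal run-free sites (30.1%, 26.6 to 33.8), against 37.0% of all common sites. A site counts as called when a peak overlaps it by at least 1 bp. When 50% of both intervals had to be shared, the share was 19.2% (16.2 to 22.5), against 31.0% of the other common sites. The second MACS list, placed with IWR-1 by elimination although filed under the DMSO ChIP, is the further measure. In it 166 sites had a peak (25.9%, 22.5 to 29.5), against 25.8% of all common sites. Both lists had a peak at 110 sites (17.2%, 14.3 to 20.3), against 18.4%, and either list at 249 (38.8%, 35.1 to 42.7), against 44.4%. The share was thus below that of all common sites by QESEQ and level with it in the second MACS list, so the position of these sites relative to the rest depends on the caller. No peak of either list was found at 392 sites (61.2%, 57.3 to 64.9), against 55.6% of all common sites. A missing peak says only that no caller's threshold was passed there.

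The other classes of sites place these shares. Distal sites with A runs were called by QESEQ in 34.8% (33.7 to 35.8) and had a peak in the second MACS list in 22.9% (22.0 to 23.8). Run-free sites within 1 kb of a start were called in 56.4% (50.3 to 62.4) and 48.4% (42.3 to 54.5), both above the shares at the distal run-free sites, with a median DMSO score of 103. Of the 249 distal run-free sites with a peak in either list, 83 had it in the QESEQ list alone (12.9% of the 641, 10.4 to 15.8), against 18.6% of all common sites. In the second MACS list alone it was 56 (8.74%, 6.67 to 11.2), against 7.41%.

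Calls were more frequent at high DMSO scores. All common sites were divided into 5 groups of about equal size by score, after the values were seen. From the lowest group to the highest, QESEQ called 25.7%, 20.5%, 20.5%, 32.4% and 54.5% of the distal run-free sites and 27.3%, 32.6%, 33.4%, 39.1% and 54.7% of the other common sites. The QESEQ shares were furthest apart in groups 2 and 3 and near each other in the lowest and highest groups. In group 2 the interval was 14.3 to 28.0 for the distal run-free sites and 30.5 to 34.7 for the others, and in group 3 it was 13.7 to 28.7 and 31.4 to 35.6. In the second MACS list the distal run-free sites had 14.9%, 18.5%, 20.5%, 27.5% and 52.0%, and the others 13.3%, 17.0%, 19.5%, 25.8% and 53.1%, each within the interval of the distal run-free sites. Distal sites with A runs had 26.6%, 32.1%, 33.6%, 38.7% and 44.6% by QESEQ, so that in the highest group the share of the distal run-free sites (45.2 to 63.5) was the higher, with an interval that overlaps theirs (42.0 to 47.2). Run-free sites near starts had 35.0%, 29.2%, 17.9%, 34.2% and 74.8%, with at most 38 sites in each of the first 4 groups. The differences by group were not tested. In the highest decile of score, 52 of 75 distal run-free sites were called by QESEQ (69.3%, 57.6 to 79.5) and 51 had a peak in the second MACS list (68.0%, 56.2 to 78.3). The other common sites in this decile had 66.0% and 69.9%, within these intervals. These others include sites at tRNA genes, of which 207 of 214 scored at least 100 and 98.1% had a peak in each IWR-1 list. In the decile below it, 15 of 48 distal run-free sites were called by QESEQ (31.3%, 18.7 to 46.3), against 43.7% of the others, and 27.1% against 36.8% had a peak in the second MACS list.

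**Figure D2:**
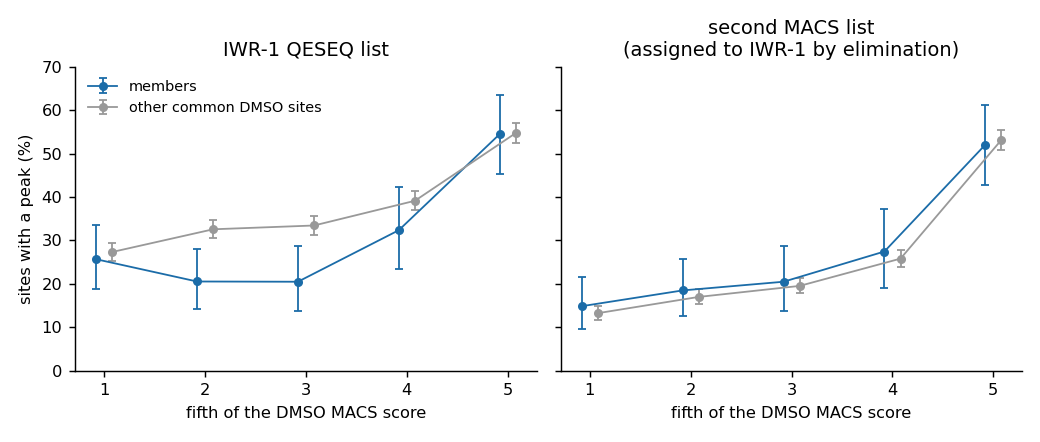
Share of sites with a peak with IWR-1 in 5 groups of rising DMSO MACS score, for the 641 distal run-free sites (blue, members) and the 9825 other common DMSO sites (grey); bars are 95% exact binomial intervals over sites. By QESEQ the distal run-free sites lie at 20.5% in groups 2 and 3, where the others lie at 32.6% and 33.4%, and in the second MACS list both follow each other.

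Sites above 400 bp were called more often than narrower ones, in width classes chosen after the values were seen. Among sites of up to 300 bp, QESEQ called 26.8% of the distal run-free sites (21.8 to 32.2) and 28.5% of the others, and above 400 bp it called 42.7% (35.0 to 50.6) and 41.7%. Above 300 and up to 400 bp the shares were 24.2% (18.1 to 31.1) and 32.2% (30.6 to 34.0). In the second MACS list the shares above 400 bp were 39.0% (31.5 to 46.9) and 28.5% (27.3 to 29.7), with median DMSO scores of 80.5 and 68.1, and the parts of width and score cannot be told apart. Up to 300 bp they were 20.1% and 22.0%, and between these widths 23.6% and 21.9%. Of the distal run-free sites, 299 were at most 300 bp wide, against 1022 of the 9825 others. When the QESEQ peak had to cover the centre of the site, a rule chosen after the values were seen, the shares were 28.2% and 34.8%. The part of width in the lower share by QESEQ was not tested further.

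A called peak overlaps its site by definition, which bounds the distance between their centres. The QESEQ peak with the largest overlap had its centre a median of 85 bp from that of the site, and 111 of the 193 lay within 100 bp (57.5%). For the second MACS list the median was 72.5 bp, and 107 of 166 lay within 100 bp (64.5%). Within their own lists, the 166 sites had a median percentile of 68.5 by DMSO score and of 46.6 by the score in the second list. The other common sites with a peak in that list had 73.2 and 57.2. The lists differ in size, and the percentiles do not compare heights.

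Features of the sites went along with calls to different degrees. Sites with more than 2% CpG were called by QESEQ in 53.7% (42.3 to 64.7) and had a peak in the second MACS list in 46.3% (35.3 to 57.7), and for the rest the shares were 26.7% (23.0 to 30.5) and 22.9% (19.5 to 26.6). Their median DMSO score was 80.6, against 63.1 for the rest, so score and CpG content cannot be told apart here. Sites between genes and sites inside genes had QESEQ calls in 32.5% (27.2 to 38.0) and 28.0% (23.3 to 33.1). In the second MACS list these shares were 30.1% (25.0 to 35.7) and 22.1% (17.8 to 26.9). Sites masked over more than 50% had QESEQ calls in 25.0% (17.4 to 33.9), and the others in 31.2% (27.3 to 35.4), with overlapping intervals.

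The GC-rich Smad element was more frequent in the sites than in all common sites or in windows nearby. GGCGCC or GGAGCC, on either strand, lay in the central 200 bp of 99 sites (15.4%, 12.7 to 18.5). The share was 8.60% in all common sites, 6.55% in distal sites with A runs, 42.5% in run-free sites near starts, and 10.8% (9.19 to 12.7) in windows of 200 bp placed 2 kb to either side of the distal run-free sites. In windows that themselves held no run of 7, a comparison chosen after the values were seen, it was 11.9% (10.0 to 13.9), whose interval overlaps that of the sites. GGAGCC gave most of the matches, with 90 sites (14.0%) against 9.83% of windows, and GGCGCC was in 13 (2.03%) against 1.17%. G and C made up 46.8% of the bases in the central 200 bp and 44.1% in the windows, and the part of base composition in these shares was not tested.

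**Figure D3:**
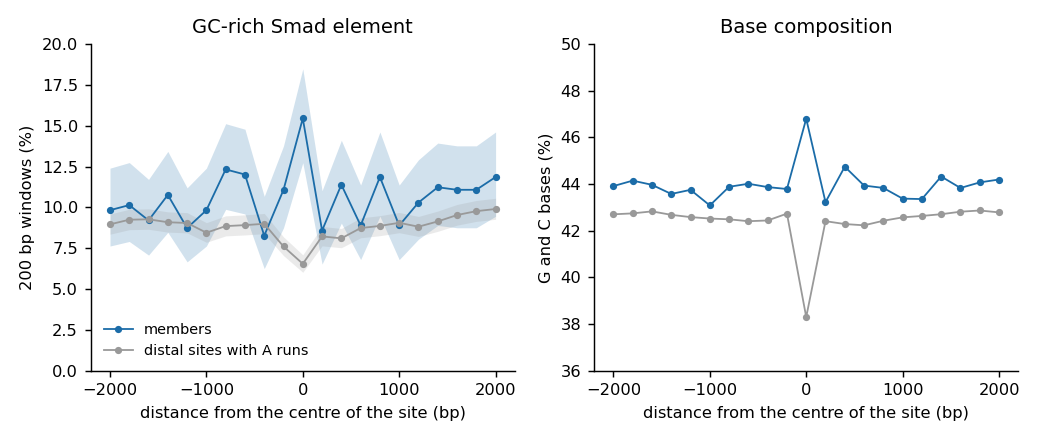
Share of 200 bp windows that hold GGCGCC or GGAGCC (left, with 95% exact binomial intervals) and content of G and C (right) by distance from the centre, for the 641 distal run-free sites (blue, members) and 8414 distal sites with A runs (grey). At the centre the element is in 15.4% of the distal run-free sites and 6.55% of the others, and G and C content is 46.8% and 38.3%.

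Step by step outward from the centre, the 200 bp windows around the distal run-free sites held the GC-rich element in 8.27% to 12.3%, against 15.4% at the centre. At distal sites with A runs the central window was the lowest, at 6.55%. The rule on runs applies to the site and not to the windows around it, so it fixes part of this contrast, and the run-free windows at 11.9% are the closer comparison. Content of G and C rose at the centre of the distal run-free sites and fell at the centre of the others, from 42.7% and 42.4% in the adjoining windows to 38.3%.

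CAGACA lay in the central 200 bp of 119 sites (18.6%, 15.6 to 21.8), against 14.7% of all common sites and 20.7% of windows (18.6 to 23.1). The palindrome GTCTAGAC was in 1 site, against 0.134% of all common sites. AGATAA or TGATAA, the GATA elements, were in 114 sites (17.8%, 14.9 to 21.0), against 16.4% of all common sites and 22.0% of windows (19.8 to 24.4). The TCF/LEF elements CTTTGAT or CTTTGTT were in 62 (9.67%, 7.50 to 12.2), against 8.85% and 8.58% (7.10 to 10.2). None of these 3 kinds of element was thus more frequent in the sites than in the windows beyond the counting error. The share with a GATA element was lower in the sites than in the windows, with intervals that overlap. At least 1 of the Smad elements was in 206 sites (32.1%, 28.5 to 35.9), against 22.1% of all common sites and 29.1% of windows. In all, 318 sites (49.6%, 45.7 to 53.6) held no Smad, GATA or TCF/LEF element, against 58.7% of all common sites and 50.9% of windows. A missing match says only that these letters are not in the window.

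**Figure D4:**
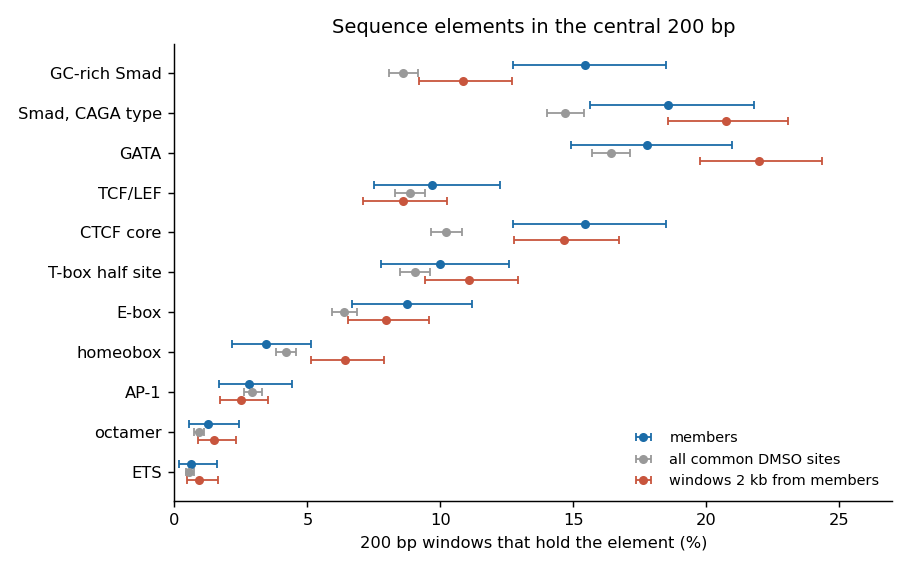
Share of 200 bp windows that hold each sequence element, on either strand, for the distal run-free sites (blue, n = 641), all common DMSO sites (grey, n = 10466) and windows 2 kb from the distal run-free sites (red, n = 1282), with 95% exact binomial intervals. The GC-rich Smad element is at 15.4%, 8.60% and 10.8%, and the homeobox element at 3.43%, 4.18% and 6.40%.

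Pairs of elements in the same 200 bp window were rare. A GC-rich Smad element stood together with CAGACA in 12 sites (1.87%, 0.971 to 3.25), against 1.22% of all common sites and 2.57% of windows. It stood with a GATA element in 14 sites (2.18%), against 1.01% of all common sites and 2.65% of windows. With a TCF/LEF element it stood in 9 (1.40%, 0.644 to 2.65), against 0.640% and 0.624%, and GATA stood with TCF/LEF in 11 (1.72%), against 1.75% and 2.42%. All shares of pairs rest on few sites. A GC-rich element followed after 5 bases by GTCT, the spacing known from BMP response elements of Id genes, was counted after the sequences had been seen. It was found in 3 of the 641 sites (0.468%, 0.0966 to 1.36), in 6 of the 10466 common sites and in 3 of 1282 windows. The 3 were the sites at Id2 and Id3 and one at chr5:119086101-119086550, 526 kb from the nearest coding start, that of Med13l, which had a score of 59.9 and was called in neither IWR-1 list.

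Of the other elements, the CTCF core was in 15.4% of sites and 14.7% of windows, against 10.2% of all common sites. As CTCF core the search took AGGGGGC, then the closely related form AGAGGGC, a further form that reads AGATGGC, and lastly the sequence written AGGTGGC. The E-box CAGCTG was in 8.74% and 7.96%, the T-box element TCACAC in 9.98% and 11.1%, and AP-1 (TGACTCA) in 2.81% and 2.50%. The homeobox element TAATTA was lower in the sites, at 3.43% (2.16 to 5.15), than in the windows, at 6.40% (5.12 to 7.88), with intervals that just overlap. ATGCAAAT, the octamer, was in 1.25% and 1.48%, and the ETS element CCGGAAG in 0.624% and 0.936%. GTTCGA, a word from the internal promoter of tRNA genes that was added after the values were seen, was in 2.18% of sites and 2.73% of windows, against 50.9% of common sites at tRNA genes.

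All 2080 words of 6 bases, both strands joined, were ranked by their share in the sites less that in the windows. CAGGAG led with 26.1% of sites and 18.5% of windows, followed by ACAGCA with 20.6% and 14.6% and CCACAG with 21.2% and 15.4%. GGAGCC ranked 24, GGCGCC 524 and CAGACA 1849. Of the GATA words, AGATAA ranked 1113, with 10.5% of sites and 10.6% of windows. TGATAA ranked 2037, with 7.96% and 12.3%, and was also in 12.3% of windows without a run. The last places went to A-rich words, with AAAAAA in 10.3% of sites and 25.2% of windows, which the rule on runs brings about in part. ATAAAA, at 15.4% and 26.6%, was also lower than in windows without a run, where it was in 25.5%.

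Among the Smad, GATA and TCF/LEF elements, the GC-rich Smad element came with the widest difference in calls. Sites with a GC-rich Smad element were called by QESEQ in 39.4% (29.7 to 49.7) and those without it in 28.4% (24.7 to 32.4), and the second MACS list had peaks at 33.3% (24.2 to 43.5) and 24.5% (21.0 to 28.4). The intervals overlap, and G and C content moved with the element, with medians of 50.5% and 45.0%. With CAGACA the QESEQ share was 28.6% and without it 30.5%. A GATA element gave 30.7% and 30.0%, and a TCF/LEF element gave 30.6% (19.6 to 43.7) and 30.1% (26.3 to 34.0). The interval for TCF/LEF is wide, since 62 sites held it, and no difference was tested.

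Genes of the listed pathways and lineages were nearest to 18 of the 641 sites (2.81%), against 2.22% of all common sites, and to 11 within 50 kb (1.72%), against 1.25%. These counts cover 17 of the 220 listed genes. Of the 18 sites, 5 were called by QESEQ with IWR-1, all 5 also had a peak in the second MACS list, and 11 were called in neither. Over all common sites the shares were 37.0% by QESEQ, 18.4% in both lists and 55.6% in neither, and 18 sites are too few to set their share apart from these. BMP targets and feedback genes had 7 of the 18 sites (1.09% of the sites, against 0.287% of all common sites), and 3 of the 7 were called in both lists. Among the 7, the sites of Bmper and Nog and an Id2 site lay beyond 50 kb, at 103, 66.0 and 605 kb. The gene lists were chosen with earlier results of these data known, so the share is a description, and the difference was not tested.

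Id4 and Id2, which like Id3 encode inhibitors of basic helix-loop-helix factors, had the 2 highest scores of the 18. The Id4 site, at chr13:48227669-48228004, 33.4 kb upstream of Id4 and inside a noncoding gene, scored 408, at percentile 98.2 of the DMSO list and rank 11 of the 641. GGCGCC occurred in its central 200 bp, CpG made up 8.04% of its bases, and both IWR-1 lists had a peak there, by QESEQ from 48227692 to 48228095. The Id2 site, centred 1.70 kb upstream of the nearest coding start, ranked 40 of the 641, and the Id3 site, 3.01 kb upstream, ranked 153. Both were called in both IWR-1 lists. A further site with Id2 as its nearest coding gene lay 605 kb upstream, scored 57.5 and was called in neither list.

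The sites of the other listed BMP genes were called in neither list, as were 55.6% of all common sites. Msx2, which encodes a homeobox factor, had a site at chr13:53475867-53476454, between genes and 3.09 kb upstream, with a score of 82.2, close to the 80.3 of the Id3 site. It held GGCGCC and GGAGCC and had 66.5% G and C, and no IWR-1 peak. The site near Bmper, which encodes a secreted BMP-binding protein, lay in an intron 103 kb from the start and scored 69.3. Nog, the gene of the BMP antagonist Noggin, had a site 66.0 kb downstream with a score of 58.3. The BMP receptor gene Acvr2a was nearest to a site 381 kb away with a score of 51.2.

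Listed genes of the Wnt pathway were nearest to 2 sites, both far away. The site for Ctnnb1, the β-catenin gene, at chr9:120752730-120752969, lay 176 kb upstream, scored 66.0 and was called in both IWR-1 lists. The site for Sp5, a Wnt target gene, lay 175 kb upstream within an intron of Myo3b, scored 59.2 and had a peak in the second MACS list only. Among early mesoderm genes, Lefty1, which encodes an inhibitor of Nodal, had a site 9.60 kb upstream with a score of 62.5 and a peak in the second MACS list only. The site 8.84 kb downstream of the homeobox gene Evx1 scored 50.9, held GGCGCC and was called in neither.

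Listed cardiac genes had 2 sites with opposite calls. The site in Tbx5, a T-box gene of the heart, ranked 148 of the 641 and was called in both IWR-1 lists, and it held none of the Smad, GATA and TCF/LEF elements. The site near Irx4, a ventricular homeobox gene, lay 29.0 kb downstream with a score of 50.1, held CAGACA and a TCF/LEF element and was called in neither. Ets1 and Fli1, ETS factors of blood vessels and blood, had sites 422 kb and 31.8 kb away with scores of 78.3 and 62.4, and neither was called. Of the pluripotency genes, Zfp42 had a site 23.6 kb downstream that scored 67.0 and held CAGACA and a TCF/LEF element. Tet1, whose product oxidises methylated cytosine, had one 2.87 kb upstream of its nearest coding start, within an intron, that scored 65.1 and held GGCGCC and a TCF/LEF element. Neither of these was called.

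**Figure D5:**
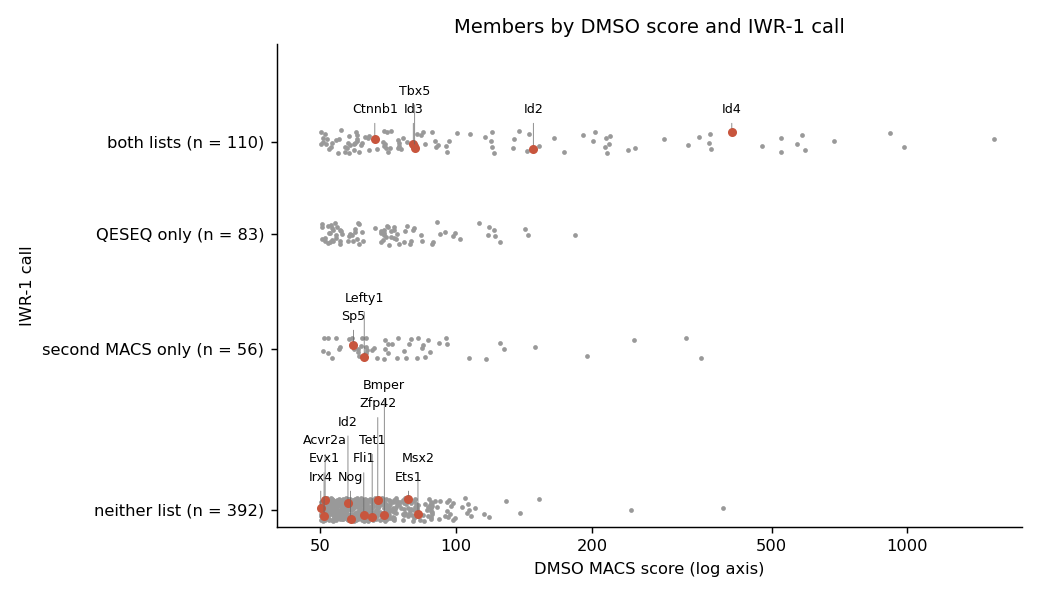
DMSO MACS score (log axis) of the 641 distal run-free sites (members) by the IWR-1 lists in which they have a peak; points are spread vertically for visibility, and red points with names are the 18 sites nearest to a listed gene. Id4 and Id2 stand among the higher scores called in both lists, and 11 of the 18, Msx2 among them, were called in neither.

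The 6 sites of highest score with a GC-rich Smad element and CAGACA in the central 200 bp differed in their calls. Of these, 3 were called in both lists and 3 in neither, against 18.4% and 55.6% of all common sites. Those called were the site 1.43 kb upstream of Sema6b, a semaphorin gene, with a score of 152, the Id3 site, and one 41.2 kb upstream of Bnc1, a zinc finger gene, with a score of 77.8. Those not called lay in an exon of the vomeronasal receptor gene Vmn1r184, with a score of 80.2, near Gm21748 on chromosome Y, with 79.6, and in an intron of the kinase gene Fyn, with 70.8. Sites with the same pair of elements and close scores thus differed in their calls.

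Of the 50 highest scores, 36 sites had a peak in both IWR-1 lists and 5 in neither, against 18.4% and 55.6% of all common sites, and calls were more frequent at high scores in the other common sites too. Between genes lay the sites whose nearest coding genes are 5730522E02Rik, Tbc1d23 and Myc, with scores of 390, 138 and 129. They lay 669 kb, 10.5 kb and 172 kb from the coding starts, so the Myc site is far from that proto-oncogene. The others were an intronic site of Sh3pxd2a, an adaptor protein gene, at chr19:47427809-47428562 with a score of 244, and a site at chr2:31442597-31442895 with a score of 152. The latter lies in an intron of Hmcn2, and its nearest coding start is that of Ass1. These 5 sites are named because they are few, after their values were seen. The Sh3pxd2a site held GGAGCC and the Ass1 site held CAGACA in the central 200 bp.

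Genes looked up in any case were Id1, Id2, Id3, Tbx5, Wif1 and Jdp2. The sites of Id2, Id3 and Tbx5 were run-free and distal. The nearest common site to Id1 lay 14.7 kb outside the gene and held a run of 28, the site in Wif1 held a run of 41 and lay near the start, and the one 6.00 kb outside Jdp2 held a run of 30, so none of these belongs to the 641.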

How the data were processed

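Smad1 ChIP and input chromatin of DMSO and IWR-1 cultures had 1 library each. Per the labels, the authors aligned reads to mm10 with Bowtie2 2.1.0 and called peaks per ChIP with MACS 1.0.1 and QESEQ. The score of each MACS peak was deposited by the authors, and QESEQ peaks carry none. The QESEQ list of IWR-1, filed under the IWR-1 ChIP, is the main measure. Both DMSO lists are filed under input samples. The second MACS list is filed under the DMSO ChIP and bears IWR-1 in its name. It was taken for IWR-1 because all 10466 common sites overlap a peak of the other MACS list. The common sites themselves are all intervals of the DMSO QESEQ list. Sequences and tRNA genes came from NCBI's GRCm38.p6, gene models from GENCODE M21. QESEQ positions were read as counted from 0, and positions are printed counted from 1. Exact binomial (Clopper-Pearson) intervals at 95% were used. Elements were searched on both strands; 45 sites are narrower than 200 bp, and their window reaches past them.

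The set of sites and the gene lists were chosen with earlier results of these data known. Named sites are the 10 highest scores, sites nearest to a listed coding gene, and the 6 highest scores with GC-rich element and CAGACA in the central 200 bp. Also named are genes nearest to 3 sites, and 6 genes looked up in any case (Id1, Id2, Id3, Tbx5, Wif1, Jdp2). Named after their values were seen are the closest pairs, the 5 sites without an IWR-1 call among the 50 highest scores, and the sites with GTCT 5 bases after a GC-rich element. Sites are named after the nearest coding gene by distance to its starts. Stretches that overlap annotated exon ends outside the coding sequence (2) are not printed. Alternatives concerned lists, overlap, score, run length, distance, repeats, chromosomes and window. The overlap, element and run steps were tested on 1000 simulated cases each, and all were classed as planted. Scripts ran in Python 3.11.15 (numpy 2.4.6, pysam 0.24.0, scipy 1.17.1, matplotlib 3.10.9).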

Additional observations from a re-analysis of the deposited data

How the results depend on the processing

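The number of distal run-free sites was 529 with a run of 6 in the rule, 734 with 8, 448 at 5 kb from starts and 711 with starts of coding transcripts only, each within 1.5 times of 641. The share called with IWR-1 was 25.9% by the second MACS list, 17.2% by both lists, 38.8% by either, 19.2% when 50% of both intervals had to be shared, and 69.7% at DMSO scores of at least 100. For the other common sites the last 2 settings gave 31.0% and 65.5%. Run length, distance, repeats and chromosomes, and 2 settings chosen after seeing the data (a peak over the centre of the site, and no site above 2% CpG), left it between 26.7% and 31.2%. Over the whole interval, the GC-rich Smad element was in 22.2% of sites, CAGACA in 29.5%, GATA in 27.6% and TCF/LEF in 14.7%; in the central 100 bp these were 8.74%, 9.52%, 8.74% and 4.06%; windows of 100 bp away from the sites were not searched. Over whole intervals the windows 2 kb away held them in 17.6%, 29.9%, 32.3% and 13.4%. Sites inside coding genes made up 47.1%, against 52.9% for all genes. The median score stayed within its interval.

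With 1 library per treatment, no paired analysis was possible because there are no replicates, and a difference in calls cannot be told apart from variation between libraries. A peak list shows whether a threshold was passed, not how far binding changed.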
